A study of Mus musculus with 16 samples.

Results

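Apoe, Apoa1, Apoa4, Clu, Lrp8 and Olr1 are genes of lipoprotein transport that were read together in mouse colonic mucosa by real-time quantitative PCR. They took up 7 of the 648 assays and 6 of the 584 genes on a panel of inflammation genes, since Apoa1 had 2 assays. The genes were chosen by name with earlier results of these data known: Clu, Lrp8 and Apoe had been picked from the comparisons of oral bacteria with oral buffer under colitis, so those comparisons are given below as values with no test. The platform was TaqMan OpenArray, a plate of nanolitre wells with 1 assay in each. There were 4 groups of 4 samples. The DNBS_CEC group received dinitrobenzene sulfonic acid (DNBS) into the rectum and CEC by mouth, the DNBS_Nissle group received DNBS and oral Nissle, the DNBS group received DNBS and oral phosphate-buffered saline (PBS), and the Healthy group received PBS by both routes. DNBS is a hapten that causes chemical colitis, and Nissle is a probiotic strain of Escherichia coli. The labels used here do not spell out CEC, and they give neither strain, sex nor age of the mice. The series text describes pooling of equal RNA amounts from the mice, yet each sample carries a number of its own, so a sample may be 1 mouse or a pool, and the p-values measure only the spread between these samples.

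Apolipoproteins coat lipid particles and steer them to receptors. Apolipoprotein A1 is the main protein of high-density lipoprotein and apolipoprotein A4 rides on chylomicrons, and both are made by absorptive cells of the small intestine, while apolipoprotein E and clusterin are secreted by macrophages and many other cells. Lrp8 belongs to the low-density lipoprotein receptor family, and Olr1 is a scavenger receptor for oxidised low-density lipoprotein on endothelium and phagocytes.

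The level of a gene was written as −ΔCt, that is, its cycle threshold (Ct) subtracted from the mean Ct of 13 reference genes. This is a log2 scale on which 1 unit more stands for about double the template. A Ct above 28 counted as not detected and was set to 28 for the tests. Assays differ in efficiency, so levels are compared between samples and never between genes. Each sample had from 528 to 564 detected assays, and the mean Ct of the reference genes lay between 18.69 and 20.12. The epithelial keratin Krt8, the only epithelial marker of 12 that the panel held, was read at a Ct of 14.6 to 18.2, and the mesenchymal markers looked for were not among the assays. DNBS_Nissle sample 4 stood apart in Krt8, at a level of 0.71, against 3.61 to 4.14 in the other DNBS_Nissle samples, and DNBS sample 3 was at 2.99, against 4.20 to 4.42 in the other DNBS samples. In mucosa measured in bulk, fewer cells of a type and less RNA per cell cannot be told apart.

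**Figure D1:**
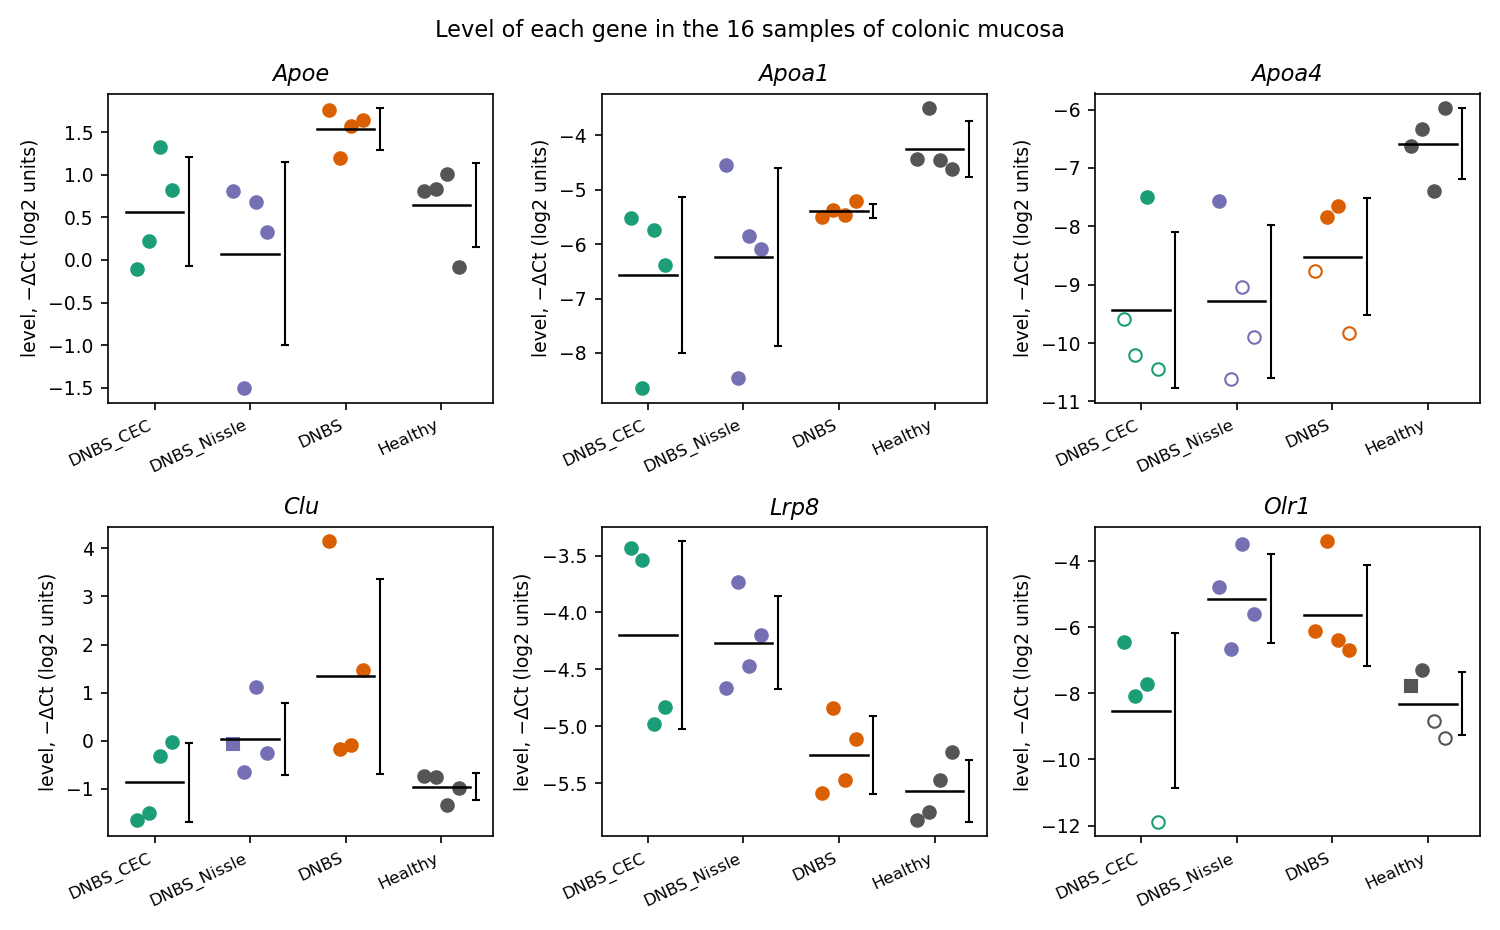
Level of each gene (−ΔCt, log2 units, vertical axis with its own range in each panel) in the 4 samples of DNBS_CEC, DNBS_Nissle, DNBS and Healthy, with group means (bars) and SD (brackets) of the values as read. Open circles are wells with a Ct above 28 and squares are values whose Ct equals the mean Ct of the other samples of the group. Apoa4 lies between −7.40 and −5.97 in Healthy and below −7.40 in every sample given DNBS.

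Outside the Healthy group, Apoa4 was read near the detection limit. It was detected in 1 of 4 DNBS_CEC samples, 1 of 4 DNBS_Nissle samples, 2 of 4 DNBS samples and 4 of 4 Healthy samples. Its Ct was 28.87, 29.43, 27.22 and 29.45 in DNBS_CEC, 26.53, 29.48, 28.80 and 28.58 in DNBS_Nissle, 28.38, 26.84, 27.49 and 28.83 in DNBS, and 26.75, 25.66, 26.75 and 25.50 in Healthy. On the −ΔCt scale as read, the DNBS_CEC samples stood at −9.59, −10.21, −7.50 and −10.45, the DNBS_Nissle samples at −7.57, −10.62, −9.04 and −9.90, the DNBS samples at −8.77, −7.83, −7.64 and −9.84, and the Healthy samples at −6.63, −6.33, −7.40 and −5.97. All 12 samples from mice given DNBS lay below all 4 Healthy samples, and the 3 DNBS groups overlapped one another.

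With undetected wells at the limit, Apoa4 averaged −8.50 ± 0.68 in DNBS_CEC, −8.56 ± 0.81 in DNBS_Nissle, −8.22 ± 0.61 in DNBS and −6.58 ± 0.61 in Healthy (SD, n = 4 per group). The means put Apoa4 at least 3.78-fold lower in DNBS_CEC than in Healthy, at least 3.95-fold lower in DNBS_Nissle and at least 3.11-fold lower in DNBS, if no undetected well was a failed reaction. Leaving out any 1 sample kept these bounds between 2.60-fold and 4.97-fold. Since too few samples of the DNBS groups were detected, Apoa4 was not among the genes tested for level. The detection counts of 1 of 4 in DNBS_CEC and 4 of 4 in Healthy gave p = 0.143 in Fisher's exact test (two-sided). With 4 samples per group these counts fix that p. Of 568 genes, 12 were detected in at least 3 samples of 1 group and at most 1 of the other, 2 of them less in DNBS_CEC. Benjamini-Hochberg adjustment over those 12 gave 0.214 in Fisher's exact test. The same counts in DNBS_Nissle and Healthy gave an adjusted p of 0.159 over 20 such genes of 568 in Fisher's exact test, 5 of them detected less in DNBS_Nissle. These genes were picked for differing in detection, so the adjusted values do not cover the whole panel. With no filter on detection, limma gave −1.98 for DNBS_Nissle against Healthy (adjusted p = 0.0361) and −1.85 for the mean of the 3 DNBS groups against Healthy (adjusted p = 0.0238), but −1.92 in DNBS_CEC (adjusted p = 0.262) and −1.64 in DNBS (adjusted p = 0.151) did not pass. At the values as read, which a limit of 30 or any Ct under 40 allows, DNBS_Nissle against Healthy did not pass either (limma adjusted p = 0.068 and 0.0598).

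Apoa1 lies beside Apoa4 on mouse chromosome 9, with Apoc3, another apolipoprotein gene, as the 1 protein-coding gene between them. The start regions of both genes are shown because both neighbours had lower means in every DNBS group than in Healthy. The sequences are from RefSeq on build GRCm38.p6 and hold 250 bases before and 50 bases after each start, at chr9:46228380-46228679 for Apoa1 and chr9:46240594-46240893 for Apoa4, both on the plus strand, 5′ to 3′. Capitals mark the match to CAAAGTNCA, a motif of the kind bound by the hepatocyte nuclear factor HNF4A, which was chosen after the sequences had been seen.
Apoa1: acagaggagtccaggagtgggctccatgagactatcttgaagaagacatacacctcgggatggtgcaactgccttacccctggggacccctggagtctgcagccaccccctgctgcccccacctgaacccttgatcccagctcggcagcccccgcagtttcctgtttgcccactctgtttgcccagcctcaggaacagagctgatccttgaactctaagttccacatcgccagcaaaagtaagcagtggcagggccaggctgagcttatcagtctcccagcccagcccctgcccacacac
Apoa4: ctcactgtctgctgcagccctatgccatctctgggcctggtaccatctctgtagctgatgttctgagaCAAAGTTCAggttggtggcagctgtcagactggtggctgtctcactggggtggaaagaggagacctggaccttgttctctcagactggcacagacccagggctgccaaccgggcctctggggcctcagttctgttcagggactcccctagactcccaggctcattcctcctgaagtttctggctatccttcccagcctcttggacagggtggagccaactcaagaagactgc
Apoa4 held 1 match, whose first base lies 182 bases before the start, and Apoa1 held none to this string. Other forms of such a motif were not looked for. A start region of Lrp8 also held a match, on the minus strand. On both strands, CAAAGTNCA was found in 1.41% of 32851 RefSeq mouse start regions of this length, so a match is a description of letters and not a binding site. TATAAA, the other string looked for, was found in a start region of Apoe and in 13.6% of the 32851. No data on binding at these regions were used.

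Apoa1 was lower on average in each DNBS group than in Healthy. Its level was −5.51, −8.65, −5.73 and −6.38 in DNBS_CEC, −4.55, −8.47, −5.86 and −6.08 in DNBS_Nissle, −5.50, −5.37, −5.46 and −5.21 in DNBS, and −4.44, −3.49, −4.46 and −4.62 in Healthy. DNBS_CEC sample 2 and DNBS_Nissle sample 4 were far below the other samples of their groups, while the DNBS samples lay close together. Both the DNBS_CEC and the DNBS samples were below all Healthy samples, and DNBS_Nissle overlapped Healthy through its sample 1.

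The group means of Apoa1 ran, low to high, −6.57 ± 1.44 in DNBS_CEC, −6.24 ± 1.63 in DNBS_Nissle, −5.38 ± 0.13 in DNBS and −4.25 ± 0.52 in Healthy (SD, n = 4 per group). DNBS_CEC and DNBS_Nissle, and DNBS_Nissle and DNBS, differed by less than the larger SD of each pair. Relative to Healthy, Apoa1 differed by −2.32 ± 0.72 in DNBS_CEC (4.99-fold lower; limma adjusted p = 0.357), by −1.99 ± 0.72 in DNBS_Nissle (3.96-fold lower; adjusted p = 0.193) and by −1.13 ± 0.72 in DNBS (2.19-fold lower; adjusted p = 0.681), each ± SE on the log2 scale. None of the 3 passed 0.05, nor did the mean of the 3 DNBS groups, at −1.81 ± 0.59 (limma adjusted p = 0.141). Without DNBS_CEC sample 2 the DNBS_CEC difference was −1.62, and without DNBS_Nissle sample 4, which was also the sample low in Krt8, the DNBS_Nissle difference was −1.24. With the detection limit at a Ct of 26, the mean of the 3 DNBS groups differed by −1.55 with a limma adjusted p of 0.0396. At that limit DNBS_CEC sample 2 and DNBS_Nissle sample 4, read at a Ct of 27.87 and 27.33, were set to 26, which narrowed the spread. The SE of DNBS against Healthy came from 0.72 to 0.45 while the difference stayed at −1.13.

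Adipocyte markers, 6 on the panel of 8 looked for, were lower on average beside Apoa1 and Apoa4. Against Healthy, 6 of 6 tested had a negative difference in DNBS_CEC (median −0.73), 5 of 5 in DNBS_Nissle (median −1.93) and 5 of 6 in DNBS (median −0.69), none passing limma. Their mean level ran from −4.30 to −2.18 in DNBS_CEC, −4.41 to −3.31 in DNBS_Nissle, −3.26 to −2.12 in DNBS and −3.58 to −0.99 in Healthy. Krt8, the epithelial marker, differed from Healthy by 0.07 ± 0.66 in DNBS_CEC, 0.16 ± 0.66 in DNBS and −0.68 ± 0.66 in DNBS_Nissle (± SE), none passing limma. The DNBS_Nissle mean of Krt8 holds sample 4, at 0.71. The part of adipocytes or of epithelium in the Apoa1 and Apoa4 values was not tested.

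The assays for Apoa1 could be set against each other. Over the 16 samples they had a Pearson r of 0.91 and a Spearman rho of 0.89, and r was 0.82 without the 2 samples farthest from the median. They were within 1 cycle of each other in 13 of 16 samples, and the largest difference was 1.47 cycles. DNBS_CEC sample 2, the lowest sample on the assay used, was not detected on the other one. Its Ct on the assay used was deposited with 4 or fewer decimals, so digits may be missing and the value may be off by less than 1 cycle.

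**Figure D2:**
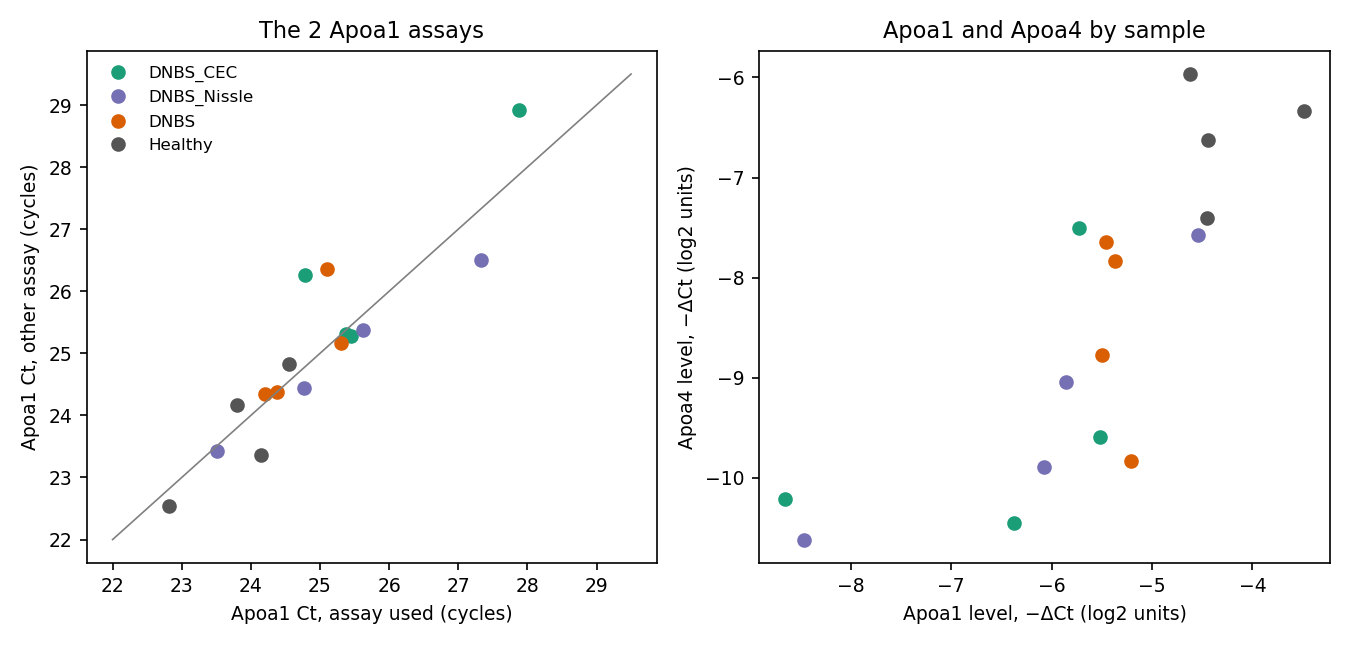
Left, the Ct of the other Apoa1 assay (vertical, cycles) against the Ct of the Apoa1 assay used (horizontal, cycles), with the line of equal Ct; 13 of 16 samples lie within 1 cycle of it. Right, the level of Apoa4 as read against that of Apoa1 (both −ΔCt, log2 units) in the same 16 samples, where the 4 Healthy samples hold the upper right and DNBS_CEC sample 2 and DNBS_Nissle sample 4 the lower left.

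Apoe, the ligand that lets remnant particles dock on receptors of the low-density lipoprotein family, was highest in the DNBS group. Its level was −0.11, 0.22, 1.33 and 0.82 in DNBS_CEC, 0.81, −1.51, 0.68 and 0.33 in DNBS_Nissle, 1.76, 1.19, 1.57 and 1.65 in DNBS, and 0.81, 0.83, 1.01 and −0.08 in Healthy. All 4 DNBS samples exceeded all Healthy and all DNBS_Nissle samples, and only DNBS_CEC sample 6 reached into their range. DNBS_Nissle sample 4 was the lowest of the 16.

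The means of Apoe were 0.56 ± 0.64 in DNBS_CEC, 0.08 ± 1.08 in DNBS_Nissle, 1.54 ± 0.25 in DNBS and 0.64 ± 0.49 in Healthy (SD, n = 4 per group). DNBS_CEC and Healthy, the neighbours in the middle of the order, differed by −0.08 ± 0.47 (SE; limma adjusted p = 0.986, 95% interval −1.08 to 0.93). DNBS was 1.87-fold higher than Healthy, a difference of 0.90 ± 0.47 that did not pass (limma adjusted p = 0.557), and DNBS_Nissle differed from Healthy by −0.57 ± 0.47 (adjusted p = 0.581). Without DNBS_Nissle sample 4 the DNBS_Nissle difference was −0.04. The Apoe value of Healthy sample 6, the lowest of its group, was deposited with 4 or fewer decimals and may have lost digits.

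Clu encodes clusterin, a secreted chaperone also called apolipoprotein J, and varied most among the DNBS samples. It was read at −1.65, −1.50, −0.32 and −0.02 in DNBS_CEC, at −0.07, −0.66, 1.11 and −0.26 in DNBS_Nissle, at 4.15, −0.17, −0.10 and 1.46 in DNBS, and at −0.75, −0.77, −1.34 and −0.99 in Healthy. All DNBS and all DNBS_Nissle samples lay above all Healthy samples, while DNBS_CEC samples fell on both sides of them. The Ct of DNBS_Nissle sample 1 equals the mean Ct of the other 3 and was read as a filled gap.

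Clu averaged −0.87 ± 0.82 in DNBS_CEC, 0.03 ± 0.76 in DNBS_Nissle, 1.34 ± 2.02 in DNBS and −0.96 ± 0.27 in Healthy (SD, n = 4 per group). DNBS was 4.92-fold higher than Healthy, a difference of 2.30 ± 0.75 (SE) with an unadjusted p under 0.05 that did not pass after adjustment (limma adjusted p = 0.261). Without DNBS sample 2 the difference was 1.36 (limma adjusted p = 0.493). DNBS_Nissle was higher than Healthy by 0.99 ± 0.75 (limma adjusted p = 0.550), and DNBS_CEC differed by 0.09 ± 0.75 (adjusted p = 0.986), a sign that turned under 9 of the alternatives tried, 3 of which left out 1 sample.

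Lrp8, known as apolipoprotein E receptor 2, binds apolipoprotein E and the signalling protein reelin. Its level was −3.43, −3.54, −4.98 and −4.83 in DNBS_CEC, −4.66, −3.73, −4.47 and −4.20 in DNBS_Nissle, −5.59, −4.84, −5.48 and −5.11 in DNBS, and −5.82, −5.75, −5.48 and −5.23 in Healthy. Every sample from mice given an oral bacterium was above every Healthy sample, and the DNBS samples overlapped Healthy. Within DNBS_CEC, samples 1 and 2 stood above samples 6 and 8 by more than 1 unit.

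By group, Lrp8 averaged −4.20 ± 0.82 in DNBS_CEC, −4.26 ± 0.40 in DNBS_Nissle, −5.25 ± 0.34 in DNBS and −5.57 ± 0.27 in Healthy (SD, n = 4 per group). In DNBS_CEC it was 2.59-fold higher than in Healthy, by 1.37 ± 0.38 (SE; limma adjusted p = 0.357), and in DNBS_Nissle 2.47-fold higher, by 1.31 ± 0.38 (adjusted p = 0.0948). DNBS differed from Healthy by 0.32 ± 0.38 (limma adjusted p = 0.896, 95% interval −0.49 to 1.13), and the mean of the 3 DNBS groups by 0.999 ± 0.31 (adjusted p = 0.131). Fitted on the 2 groups alone, the DNBS_Nissle difference passed with a limma adjusted p of 0.0388. The samples in these comparisons were also those from which Lrp8 had been picked.

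Within DNBS_CEC, neutrophil markers were high in the same samples as Lrp8. The mean level of the 5 neutrophil markers on the panel, S100a8, S100a9, Ltf, Il8rb and Camp of 9 looked for, was −1.85 and −2.55 in samples 1 and 2, against −5.42 and −6.64 in samples 6 and 8. Across groups that mean level ran from −6.64 to −1.85 in DNBS_CEC, −2.31 to −1.26 in DNBS_Nissle, −4.54 to 0.37 in DNBS and −7.45 to −6.59 in Healthy. In DNBS_Nissle the neutrophil level was −1.26, −2.18, −1.83 and −2.31 in samples 1, 4, 5 and 7. There sample 1 had the highest neutrophil level and the lowest Lrp8, and sample 4, the highest in Lrp8, was not the highest in neutrophil level. In DNBS and in Healthy, the sample highest in Lrp8 (DNBS sample 3 and Healthy sample 6) was also highest in neutrophil level. The part of neutrophils in the Lrp8 values was not tested.

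Olr1, the receptor LOX-1, was detected in 3 of 4 DNBS_CEC samples, 4 of 4 DNBS_Nissle samples, 4 of 4 DNBS samples and 2 of 4 Healthy samples. The Healthy count includes sample 3, whose value was filled and not measured. As read, it stood at −6.44, −8.07, −7.72 and −11.89 in DNBS_CEC, −4.77, −6.66, −3.48 and −5.61 in DNBS_Nissle, −6.12, −3.39, −6.37 and −6.68 in DNBS, and −7.77, −7.28, −8.83 and −9.35 in Healthy. The undetected wells were DNBS_CEC sample 8 and Healthy samples 5 and 6, the value of Healthy sample 3 was a filled gap, and that of DNBS_Nissle sample 5, the highest of its group, had 4 or fewer decimals. All DNBS_Nissle and all DNBS samples exceeded all Healthy samples, and DNBS_CEC overlapped Healthy.

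With undetected wells at the limit, Olr1 averaged −7.81 ± 1.06 in DNBS_CEC, −5.13 ± 1.34 in DNBS_Nissle, −5.64 ± 1.52 in DNBS and −8.04 ± 0.64 in Healthy (SD, n = 4 per group). It was at least 7.53-fold higher in DNBS_Nissle than in Healthy and at least 5.29-fold higher in DNBS, bounds that came down to 5.15-fold without DNBS_Nissle sample 5 and to 3.14-fold without DNBS sample 3. Without Healthy sample 3, the filled value, the bounds were 8.02-fold for DNBS_Nissle and 5.63-fold for DNBS. With only 2 Healthy samples counted as detected, sample 3 among them, Olr1 was not tested against Healthy. With no filter on detection, limma gave adjusted p = 0.0613 for DNBS_Nissle, 0.248 for DNBS and 0.983 for DNBS_CEC. DNBS sample 3, the highest DNBS sample in Olr1, also had the highest neutrophil marker level of all samples, 0.37, and in DNBS_CEC the lowest Olr1 and the lowest neutrophil level, −6.64, were both in sample 8. The 2 endothelial markers on the panel of 9 looked for, Sele and Selp, had a mean level of −7.78 to −6.46 in DNBS_CEC, −5.65 to −4.34 in DNBS_Nissle, −7.38 to −4.39 in DNBS and −7.93 to −7.30 in Healthy. Whether neutrophils or endothelium had a part in the Olr1 values was not tested.

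**Figure D3:**
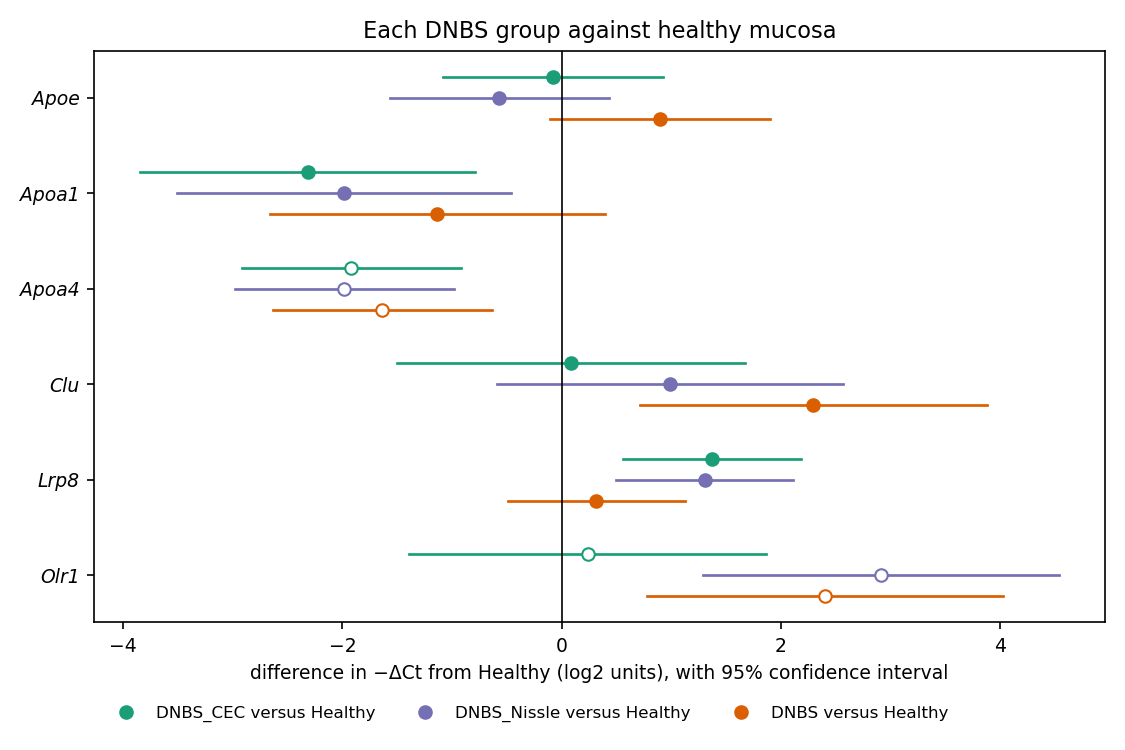
Difference in level (−ΔCt, log2 units, horizontal axis) of each gene between DNBS_CEC, DNBS_Nissle or DNBS and Healthy, with 95% confidence intervals. Filled points are genes tested in the comparison; open points are Apoa4 and Olr1 with undetected wells at the limit, which were not tested. The estimates for Apoa1 and Apoa4 lie left of 0 in each group, and the interval of Lrp8 lies right of 0 in DNBS_CEC and DNBS_Nissle.

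Counted against the whole panel, none of the tested genes of the group passed limma's adjusted p of 0.05 in any comparison with Healthy, and these comparisons share the Healthy samples. The DNBS, DNBS_CEC and DNBS_Nissle samples in them are also those from which Apoe, Clu and Lrp8 were picked, so the counts that hold these genes are a description and nothing is read from them against the panel. In DNBS against Healthy, 0 of 4 passed, where 0.219% of 457 tested genes did, and 1 of 4, Clu, had an unadjusted p under 0.05, as 45 of all genes had. There 3 of 4, Apoe and Clu upward and Apoa1 downward, did not overlap, where 8.53% of all genes did not. In DNBS_CEC against Healthy, 0 of 4 passed, as did 0% of 458 genes, 2 of 4, Apoa1 and Lrp8, had an unadjusted p under 0.05, as 25 of all genes had, and the same 2 did not overlap, against 3.28%.

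For DNBS_Nissle and Healthy, 0 of 4 passed, against 2.19% of 457 genes, and 2 of 4, again Apoa1 and Lrp8, had an unadjusted p under 0.05, as 75 of all genes had. Clu, with its filled value, and Lrp8 did not overlap, 2 of 4 against 13.8%. For the mean of the 3 DNBS groups against Healthy, 0 of 4 passed, against 1.99% of 453 genes, 2 of 4 had an unadjusted p under 0.05, as 59 of all genes had, and 0 of 4 did not overlap, against 1.77%. Apoa4, untested, lay below Healthy without overlap in each of the 3 groups and in all 12 samples together.

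The comparisons of the oral bacteria with oral PBS under DNBS asked whether an oral bacterium altered the mucosa of mice given DNBS, and are a description here because they chose the genes. They share the DNBS samples. In DNBS_CEC against DNBS, Clu differed by −2.21 ± 0.75, Olr1 by −2.16 ± 0.76, Apoa1 by −1.18 ± 0.73, Apoe by −0.98 ± 0.48 and Lrp8 by 1.06 ± 0.38 (± SE, log2 scale), with the undetected Olr1 well at the limit. Apoa1 was the 1 of 5 whose samples did not overlap, being lower in DNBS_CEC, where 0.633% of 474 genes did not overlap. The gap lay between −5.51 in DNBS_CEC sample 1 and −5.50 in DNBS sample 2, and on the other Apoa1 assay the groups overlapped, with DNBS_CEC sample 6 at −5.56 and DNBS sample 2 at −6.76. Clu came to −1.27 without DNBS sample 2, Olr1 to −1.41 without DNBS sample 3 and Apoa1 to −0.49 without DNBS_CEC sample 2.

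In DNBS_Nissle against DNBS, Apoe differed by −1.47 ± 0.48, Clu by −1.31 ± 0.75, Apoa1 by −0.85 ± 0.72, Olr1 by 0.51 ± 0.76 and Lrp8 by 0.99 ± 0.38 (± SE). The samples did not overlap in 2 of 5, Apoe lower and Lrp8 higher in DNBS_Nissle, where 1.05% of 474 genes did not overlap. Without DNBS_Nissle sample 4, Apoe came to −0.94 and Apoa1 to −0.11; without DNBS sample 2, Clu came to −0.37; and without DNBS_Nissle sample 5, Olr1 came to −0.04. Adipocyte markers were also lower on average in DNBS_Nissle than in DNBS. Of those tested, 5 of 5 had a negative difference, with a median of −1.40 against −0.18 over all genes. These ran from −1.88 for Retn to −0.008 for Pparg. The mean level of all 6 markers on the panel did not overlap between the 2 groups, but only narrowly. The nearest samples were DNBS_Nissle sample 5 at −3.31 and DNBS sample 5 at −3.26. That mean includes Lep, which was left untested because every DNBS_Nissle well lay beyond the limit. The share without overlap given above is for single genes and not for such a mean. Within DNBS_Nissle the adipocyte level was −4.41, −3.78, −3.31 and −4.39 in samples 1, 4, 5 and 7. There sample 1, the lowest in adipocyte level, had the highest Apoe, and sample 4 had the lowest Apoe. The part of adipocytes in the Apoe values was not tested.

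Between the bacteria, Olr1 was the gene with the greatest gap. With the undetected well of DNBS_CEC sample 8 at the limit, DNBS_CEC was at least 6.39-fold lower than DNBS_Nissle, a difference of −2.67 ± 0.76 (SE) that did not pass (limma adjusted p = 0.465) and in which 1 DNBS_CEC sample overlapped DNBS_Nissle. Clu differed by −0.90 ± 0.75, Apoa1 by −0.33 ± 0.72, Apoe by 0.49 ± 0.47 and Lrp8 by 0.07 ± 0.38 (± SE), each with a limma adjusted p of 0.974. For Lrp8 the 95% interval ran from −0.74 to 0.88. In this comparison 0 of 5 passed, as did 0% of 471 genes, 1 of 5 and 22 of all genes had an unadjusted p under 0.05, and 0 of 5 did not overlap, against 1.91%. Its samples are also among those from which Apoe, Clu and Lrp8 were picked, so these counts are a description too.

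Other genes of lipid handling were few on the panel. Of 50 looked for, 5 had an assay: Stab1, a scavenger receptor, Pparg, the transcription factor of fat cells, Fabp4, a fatty acid carrier, and the serum amyloid genes Saa1 and Saa3, whose acute-phase proteins travel on high-density lipoprotein. None passed in any comparison with Healthy. In DNBS against Healthy 4 of 5 were higher, with a median of 0.39, against a median of 0.12 over all genes. Saa3 had the highest difference, 3.64 ± 1.32 (SE; limma adjusted p = 0.332), and Pparg the lowest, −0.49 ± 0.38 (adjusted p = 0.791), or −0.15 without DNBS sample 3.

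In DNBS_CEC 2 of the 5 were higher than in Healthy, with a median of −0.06 against 0.07 over all genes, and in DNBS_Nissle 3 of 5, with a median of 0.09 against −0.10. Saa3 was again the highest, by 1.97 in DNBS_CEC and by 2.62 in DNBS_Nissle, and Fabp4 the lowest, at −0.44 in DNBS_CEC and −1.12 in DNBS_Nissle. The sizes of these differences shifted with single samples. In DNBS_CEC, Saa3 ran from 0.75 without DNBS_CEC sample 1 to 3.09 without Healthy sample 4. Fabp4 there was at 0.17 without DNBS_CEC sample 2, where Pparg was the lowest at −0.13. Without Healthy sample 4, Fabp4 was at −0.06 and Pparg was again the lowest, at −0.17. In DNBS_Nissle both Saa3 and Fabp4 kept their places with any 1 sample left out. Saa3 there ran from 1.89 without Healthy sample 3 to 3.74 without Healthy sample 4, and Fabp4 from −1.42 without Healthy sample 5 to −0.73 without Healthy sample 4. The macrophage and monocyte markers, 6 on the panel of 13 looked for, overlapped among groups: their mean level ran from −2.93 to −1.91 in DNBS_CEC, −2.99 to −1.84 in DNBS_Nissle, −2.44 to −1.40 in DNBS and −2.74 to −2.05 in Healthy. Relative to Healthy, 5 of 6 were higher in DNBS (median 0.63), 3 of 6 in DNBS_CEC (median −0.13) and 2 of 6 in DNBS_Nissle (median −0.08), none passing limma. Relative to DNBS, 6 of 6 were lower in DNBS_CEC (median −0.61, against −0.11 over all genes). In DNBS_Nissle 5 of 6 were lower than in DNBS (median −0.52, against −0.18 over all genes). The T and B cell markers, 2 on the panel of 10, ran from −5.88 to −4.15 in DNBS_CEC, −6.63 to −5.35 in DNBS_Nissle, −6.47 to −4.45 in DNBS and −5.13 to −4.94 in Healthy. The DNBS sample with the highest Clu, sample 2, had a macrophage and monocyte level of −1.40. DNBS sample 3, the lowest of its group in Clu, was at −1.41, and DNBS sample 4 was at −1.84. DNBS sample 5, next to sample 2 in Clu, had the lowest level of the group, −2.44. The part of these cells in the Apoe and Clu values was not tested.

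Patterns across the 16 samples were compared with those of 411 other genes detected in every sample, as a description with no test, since all levels share the reference mean of their sample. Apoe ran most like Ly86, the partner of the pattern receptor Cd180, with a Pearson r of 0.91 (Spearman rho 0.80, and r 0.76 without DNBS_Nissle sample 4 and DNBS sample 2), then Tnfsf12 (r 0.86), listed together with its read-through transcript, and Bad (r 0.84). Lrp8 ran most like Anxa1, the annexin that curbs leukocyte entry (r 0.85, rho 0.77, and r 0.72 without DNBS_CEC samples 1 and 2), then Hif1a (r 0.79) and Tnfrsf1b (r 0.76).

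Apoa1 ran most like Bmp3 (r 0.78), Aoc3 (r 0.75) and Ccl25 (r 0.73), but without DNBS_CEC sample 2 and DNBS_Nissle sample 4 these came to 0.24, 0.12 and 0.44, so the likeness rests on those samples. Clu ran most like C1qa (r 0.66), Siglec1 (r 0.59) and Ptges (r 0.56), which without DNBS samples 2 and 5 came to 0.25, 0.24 and 0.34.

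Apoe and Lrp8, a ligand and its receptor, ran in opposite directions. Both genes had been picked from DNBS_Nissle against DNBS, where Apoe was lower and Lrp8 higher, so part of this came with the choice. Their levels had a Pearson r of −0.66 and a Spearman rho of −0.66 over the 16 samples, r was −0.57 without DNBS_Nissle sample 4 and DNBS sample 2, and the deviations from the group means had an r of −0.78. In DNBS_CEC, samples 1 and 2 had the 2 highest Lrp8 and the 2 lowest Apoe levels of the group. Within DNBS_CEC and within DNBS_Nissle the 4 samples ranked by Apoe stood in the reverse of their order by Lrp8. Apoa1 and Lrp8 also ran opposite, with r −0.74 and rho −0.74, and r −0.55 without DNBS_CEC sample 2 and DNBS_Nissle sample 4. Of 411 genes ranked from the highest r with Lrp8, Apoe was at rank 389 and Apoa1 at rank 406. In the same ranking for Apoe, Lrp8 was at rank 410.

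**Figure D4:**
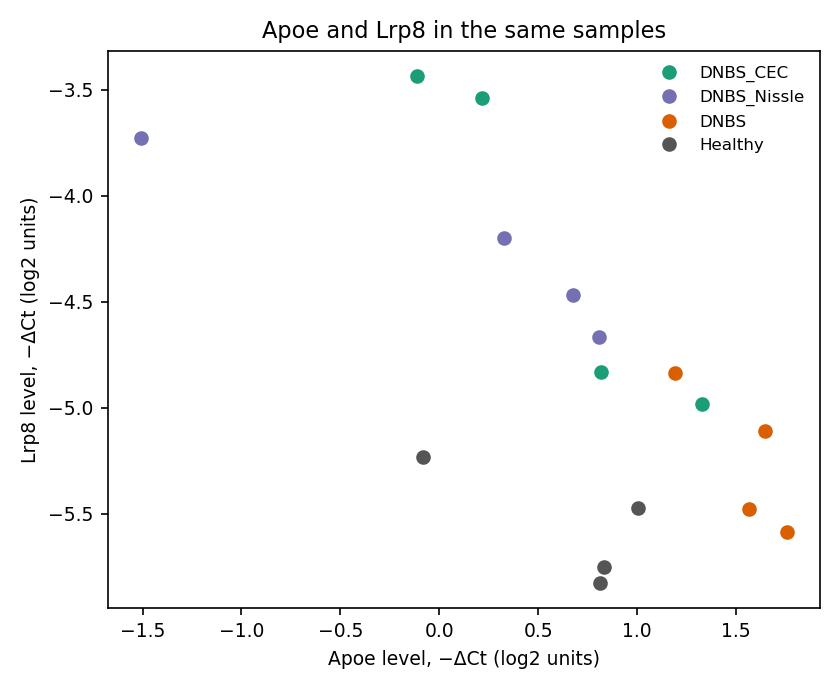
Level of Lrp8 (vertical) against that of Apoe (horizontal) in the 16 samples (both −ΔCt, log2 units), coloured by group. Lrp8 is lower where Apoe is higher in DNBS_CEC and DNBS_Nissle, and the Healthy samples lie below the others at the same Apoe level.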

How the data were processed

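The authors deposited raw cycle thresholds (Ct), recorded here as unit other and with no normalization; per the file headers the table is a truncated example of raw Ct values, and a Ct of 40 means no amplification. RNA was isolated with the mirVana kit and run on an OpenArray NT Cycler, per the labels' protocols; the thresholding software is not given in the sources used here. From the Ct, −ΔCt was computed with 13 reference genes (19 assays) that included Gapdh, Actb, Ppia, Tbp, Rplp2 and Ywhaz; Ywhaz ranged from 17.9 to 26.8 cycles. The 16 endogenous controls were not tested. Where assays of a gene differed in how many samples they detected, the better ones were averaged, which left 1 Apoa1 assay.

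Testing required detection in 3 or more of the 4 samples in every group compared. One limma 3.58.1 model (R 4.3.3; lmFit, contrasts.fit, eBayes) covered all 16 samples with 12 residual degrees of freedom, and p-values were adjusted by Benjamini-Hochberg over all tested genes. The fit was tested on simulated data. The molecules behind a Ct are unknown, so no counting interval is given, and 4 samples per group limit the precision.

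The members and gene lists were chosen with earlier results of these data known. All 6 members were named; the genes named as most like a member were the 3 with the highest Pearson r, and lipid-list genes were named as the highest and lowest of the list.

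Over all assays, 194 values matched the average of their group's remaining samples within 2e-06, 57 of them in Healthy sample 3 and 61 in DNBS_Nissle sample 1 (at most 12 elsewhere), and 532 had 4 or fewer decimals, where the digits 40 may have been lost. Of the 112 values of the members, 2 were of the first kind and 6 of the second. Both were kept, and left out as alternatives. The other Apoa1 assay alone and the lipid list without single samples were alternatives chosen after seeing the data. All 6 members matched RefSeq by symbol, and 5 were in its table of start regions. Same-numbered samples of different groups did not vary together: over 10 such pairs the correlation of their deviations from group means ran from −0.47 to 0.31. Some reference genes are not reported here by name.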

Additional observations from a re-analysis of the deposited data

Results flagged for a closer look

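Each group of 4 without filled values was checked for a sample far from the others by Dixon's criterion, for the 6 genes and Krt8. Of 26 groups 4 held such a sample, where chance gives about 1 in 20. Apoa1 was −3.49 in Healthy sample 4, with the other Healthy samples from −4.62 to −4.44; without it the difference of DNBS from Healthy was −0.88. Olr1 was −3.39 in DNBS sample 3, with the other DNBS samples from −6.68 to −6.12. In Krt8, DNBS_Nissle sample 4 was at 0.71 with the other DNBS_Nissle samples from 3.61 to 4.14, and DNBS sample 3 at 2.99 with the other DNBS samples from 4.20 to 4.42. The cause of these values was not tested.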

How the results depend on the processing

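Over all alternatives, 922 values of single genes counted as unchanged. Tested values counted so when they kept their direction and their side of the threshold. Values against DNBS, given with no test, counted so when they moved by less than the pooled SD of the groups compared. Of the latter, Olr1 in DNBS_Nissle against DNBS turned sign (0.51, but −0.039 without DNBS_Nissle sample 5, whose short value was also left out with the short values). Among tested values, 33 turned sign and 2 came to pass. For DNBS_Nissle against Healthy the members passing were 0, and 1 with no detection filter (Apoa4) and 1 with only the groups compared in the fit (Lrp8). For the mean of the 3 DNBS groups against Healthy they were 0, and 1 with a detection limit of 26 (Apoa1), 1 with a limit of 30, 1 with any Ct under 40 and 1 with no filter (Apoa4 in each, −2.50, −2.50 and −1.85, with limma adjusted p of 0.0342, 0.034 and 0.0238). Clu in DNBS_CEC against Healthy (0.09) was −0.15 without Ywhaz and Rplp2 in the reference, −0.26 with the 3 most stable controls, −0.082 with Gapdh, −0.016 with the global mean and −0.059 with quantile normalization. Apoe in the mean of the 3 DNBS groups (0.08) was −0.016 without Ywhaz and Rplp2, −0.16 with the 3 controls, −0.037 with the global mean, −0.082 with quantile normalization and −0.16 with short values left out. Lrp8 in DNBS_CEC against DNBS_Nissle (0.07) was −0.18 without Ywhaz and Rplp2, −0.15 with the 3 controls, −0.28 with Gapdh and −0.00192 with the global mean. Without Healthy sample 3 and DNBS_Nissle sample 1, Lrp8 there was −0.065 and Apoa1 0.23 (−0.33 as reported); Apoa1 was 0.36 with short values left out. With the replicate block, Clu in DNBS_CEC against Healthy was −1.11 and Apoe in the mean of the 3 DNBS groups −0.022; the numbers did not pair the samples (4 of 10 correlations over 0.1, and 2 of 14 samples closest to their own number), and genes passing over the panel went to 0 for DNBS_Nissle and for the mean (10 and 9 without the block) and to 2 for DNBS (1 without). Leaving out 1 sample each gave −0.33 to 0.15 for Apoe and −0.20 to 0.35 for Clu in DNBS_CEC against Healthy, −0.16 to 0.26 for Apoe in the mean, and, in DNBS_CEC against DNBS_Nissle, −0.19 to 0.33 for Lrp8, −1.08 to 0.36 for Apoa1 and −0.040 to 0.73 for Apoe. Over the panel, 5 genes passed in DNBS against Healthy with undetected values left out and 7 with only the groups compared, against 1. Across all settings this number ran from 0 to 7 for DNBS, 0 to 20 for DNBS_Nissle and 0 to 15 for the mean of the 3 groups. The causes were not tested. Low signal limits Apoa4 and Olr1, whose reads near the detection limit give bounds rather than levels.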
